A study of Mus musculus with 4 samples.

Results

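Chemokines are small secreted proteins that steer leukocytes into injured tissue by binding G protein-coupled receptors on the responding cells. In acute pancreatitis they are known to be made by damaged acinar cells, stellate cells and arriving myeloid cells, and to draw monocytes and neutrophils into the gland. The 10 followed here by name fall into 4 groups. Ccl9 and Ccl6 are mouse CC chemokines of myeloid cells and ligands of Ccr1. Ccl2, Ccl7 and Ccl8 are monocyte chemoattractants, of which Ccl2 and Ccl7 act on Ccr2. Cxcl1, Cxcl2 and Cxcl5 are neutrophil chemoattractants that act on Cxcr2. Cxcl12 is the stromal ligand of Cxcr4 and Ackr3, and Cxcl16 is a membrane-bound ligand of Cxcr6 that is shed by Adam10. All 10 had UMIs (unique molecular identifiers, which count captured probe molecules) and were kept. They are among 32285 genes listed, of which 20381 had a UMI in the spots used. A listed gene without UMIs may have had no probe.

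The tissue was pancreas from C57Bl/6 mice carrying the Pdx1-Cre transgene, which recombines floxed alleles in the pancreatic epithelium. Immune and stromal cells of the Ehmt2fl/fl mice therefore keep Ehmt2, the gene of a histone H3 lysine methyltransferase. There were 2 sections labelled as wild type with Pdx1-Cre and 2 labelled as Ehmt2 knockout with Pdx-Cre. They are called Ehmt2+/+ (Pdx1-Cre alone) and Ehmt2fl/fl (Pdx1-Cre with both floxed alleles) here, after the paper's names. Each section was taken as its own mouse, which the methods do not state. According to the methods the mice were 4 weeks old. After a fast of 12 h all mice received caerulein, a secretagogue related to cholecystokinin that brings on pancreatitis. It was given as 8 hourly injections of 50 μg/kg, and tissue was taken 18 h after the first dose. No untreated section was analysed here, so each value describes the inflamed gland.

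A spot, the unit of measurement, is a small area of a fixed section that can hold several cells. Spots with at least 500 UMIs were used, 6144 and 7871 in the Ehmt2+/+ sections and 6483 and 6462 in the Ehmt2fl/fl sections. Depth differed: Ehmt2+/+ replicate 1 held 43784930 UMIs and the other 3 sections between 6643747 and 7938386. Transcripts of digestive enzymes made up 63.6% and 52.9% of all UMIs in the Ehmt2+/+ sections, and 22.1% and 21.4% in the Ehmt2fl/fl sections. Olfactory receptor (Olfr) genes, which the pancreas should lack, served as background. Their median level was 0.251 UMIs per 1000000 UMIs of the section (CPM) in Ehmt2+/+ replicate 1, against 4.97 in Ehmt2+/+ replicate 2 and 8.28 and 12.6 in the Ehmt2fl/fl sections. Probes read a fixed site, so UMIs do not grow with transcript length, but an order of genes by UMIs is not an order by transcripts, since probes differ in efficiency. Ehmt2 itself stood at 19.8 and 3.95 CPM in the Ehmt2+/+ sections and at 10.1 and 12.1 in the Ehmt2fl/fl sections, and 73.9%, 35.2% and 55.0% of Olfr genes reached its level in the last 3, so its transcript did not check the labels. Replicates 1 of both genotypes shared a slide, as did replicates 2. Both Ehmt2+/+ sections lay in capture area B1 and both Ehmt2fl/fl sections in A1, so that area and genotype cannot be told apart. The Y-linked genes Ddx3y, Uty, Kdm5d and Eif2s3y had 0 or 1 UMI in each Ehmt2+/+ section and 33 to 139 in each Ehmt2fl/fl section. Xist was listed with 0 UMIs in all 4, and whether a probe read it is not known. Sex and genotype therefore cannot be told apart either.

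The genes sit in chemokine clusters. On GRCm38 (GENCODE M21), Ccl9 lies at chr11:83572919-83578636 and Ccl6 at chr11:83587882-83593087, both on the minus strand. Ccl2 (chr11:82035571-82037453), Ccl7 (chr11:82045712-82047525) and Ccl8 (chr11:82115185-82116799) follow each other on the plus strand of the same chromosome. Cxcl5 (chr5:90759360-90761624), Cxcl1 (chr5:90891241-90893115) and Cxcl2 (chr5:90903871-90905938) lie on the plus strand of chromosome 5. Cxcl12 (chr6:117168535-117181367, plus strand) and Cxcl16 (chr11:70453983-70459984, minus strand) stand apart from these clusters.

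Neutrophil chemoattractant genes are known targets of NF-κB, which is switched on early in pancreatitis. Of the 10 genes, Ccl9, Ccl6, Ccl8, Cxcl1, Cxcl2 and Cxcl12 had a RefSeq promoter sequence, and their 250 bases before the start were searched on both strands for the consensus κB motif. Cxcl1, Cxcl2 and Ccl9 held a match, as did 1204 of 27025 genes (4.46%). The match of Cxcl1 and that of Cxcl2 had the same 10 letters, GGGAATTTCC, and each overlaps a further match on the other strand that begins 1 base later. The 120 bases before their GENCODE starts (GRCm38.p6, plus strand, chr5:90891121-90891240 and chr5:90903751-90903870) are printed with that match in capitals. It begins 67 bases before the start of Cxcl1 and 69 bases before that of Cxcl2.

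Cxcl1: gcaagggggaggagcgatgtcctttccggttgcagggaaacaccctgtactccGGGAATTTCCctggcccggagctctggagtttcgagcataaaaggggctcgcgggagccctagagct

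Cxcl2: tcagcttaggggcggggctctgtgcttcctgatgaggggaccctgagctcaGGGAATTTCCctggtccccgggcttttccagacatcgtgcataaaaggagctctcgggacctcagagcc

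Ccl9 and Ccl6, which were measured at the highest levels and side by side in the same spots, are shown for comparison (GRCm38.p6, minus strand, chr11:83578637-83578756 and chr11:83593088-83593207). The κB match of Ccl9 was GGAAAGCCCC, which reads as the motif on the other strand and begins 35 bases before its start, and Ccl6 held none in its 250 bases. The capitals mark the longest run of letters that both windows share, GCCCTCCACTTCC, which 5 of 27025 genes hold (0.0185%) on either strand of the 250 bases. It begins 14 bases before the start of Ccl9 and 55 bases before that of Ccl6. A match is a description of the letters and no evidence that a factor binds there.

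Ccl9: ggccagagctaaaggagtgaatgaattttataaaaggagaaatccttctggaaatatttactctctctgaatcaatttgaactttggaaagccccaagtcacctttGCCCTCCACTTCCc

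Ccl6: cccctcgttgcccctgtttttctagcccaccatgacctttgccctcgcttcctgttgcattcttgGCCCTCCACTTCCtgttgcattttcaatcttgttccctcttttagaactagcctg

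Ccl6 and Ccl9 had the most UMIs of the 10 genes in the sections. Ccl6 stood at 60.1 and 101 CPM in the Ehmt2+/+ sections and at 1270 and 1079 CPM in the Ehmt2fl/fl sections. Ccl9 stood at 25.5 and 31.9 CPM, and at 499 and 434 CPM. Both genes were lowest in the Ehmt2+/+ sections and the genotypes did not overlap, an order shared by 90.9% of all genes detected. Their means were 80.3 ± 28.6 against 1174 ± 135 CPM for Ccl6 and 28.7 ± 4.48 against 467 ± 45.5 CPM for Ccl9 (SD, n = 2 each). No Olfr gene reached either chemokine in any section. In bulk sums of this kind, more cells of a type and more RNA per cell cannot be told apart.

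The share of spots with a UMI gave the same order. Counted directly, Ccl6 was present in 30.7% (95% Clopper-Pearson interval 29.5 to 31.9) and 8.96% (8.34 to 9.61) of Ehmt2+/+ spots. In the Ehmt2fl/fl sections it was present in 60.5% (59.3 to 61.7) and 60.7% (59.5 to 61.9). These intervals cover counting error only, and the spots of Ehmt2+/+ replicate 1 were deeper, with a median of 6328 UMIs against 874 to 1113 elsewhere. With each spot thinned to 500 UMIs, which left out no spot, the expected share of Ccl6 was 4.15% and 5.38% against 42.0% and 38.7%. That of Ccl9 was 1.83% and 1.88% against 21.2% and 19.9%, where the direct shares were 15.5%, 3.10%, 34.5% and 35.9%. At equal depth the replicates of a genotype thus lay close together for Ccl6 and Ccl9. Thinning did not bring the Ehmt2+/+ sections together for each gene. The thinned share of Cxcl2 was 0.0566% and 0.520% there, and the median share of the Olfr genes was 0.0167% and 0.274%. A single Ccl6-rich spot held up to 8 and 4 UMIs of it in the Ehmt2+/+ sections and up to 17 and 20 in the Ehmt2fl/fl sections.

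Of the monocyte chemoattractants, Ccl7 was the most abundant and Ccl2 lay near background. Ccl7 stood at 28.3 and 38.5 CPM in the Ehmt2+/+ sections and at 295 and 146 CPM in the Ehmt2fl/fl sections, above every Olfr gene in all 4. Its Ehmt2fl/fl sections differed by the largest ratio among the 10 genes, with a mean of 221 ± 105 CPM (SD, n = 2). Ccl8 stood at 2.35 and 8.79 CPM, and at 37.5 and 32.2 CPM. Ccl2 stood at 2.79 and 5.48 CPM, and at 21.1 and 14.5 CPM. In Ehmt2+/+ replicate 2 and Ehmt2fl/fl replicate 2, 43.0% and 35.8% of Olfr genes were at or above Ccl2, so its level there was not distinguishable from background.

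Of the neutrophil chemoattractants, Cxcl2 and Cxcl5 stood further above background than Cxcl1 in the Ehmt2fl/fl sections. Cxcl2 stood at 0.731 and 9.81 CPM in the Ehmt2+/+ sections and at 44.3 and 43.7 CPM in the Ehmt2fl/fl sections. Cxcl5 stood at 1.74 and 13.8 CPM, and at 78.6 and 49.0 CPM. In both Ehmt2fl/fl sections no Olfr gene reached either of them, while 1.63% and 2.62% of Olfr genes reached Cxcl2 in the Ehmt2+/+ sections. Cxcl1 stood at 0.936 and 6.25 CPM, and at 14.1 and 14.1 CPM. Olfr genes at or above Cxcl1 made up 29.7% in Ehmt2+/+ replicate 2 and 10.9% and 38.1% in the Ehmt2fl/fl sections. Cxcl1 and Cxcl2, whose windows share a κB match, thus stood differently to background.

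Cxcl12 and Cxcl16 did not exceed 43.0 CPM in any section. Cxcl12 stood at 2.90 and 9.31 CPM in the Ehmt2+/+ sections and at 25.3 and 24.8 CPM in the Ehmt2fl/fl sections. Cxcl16 stood at 16.6 and 12.0 CPM, and at 43.0 and 31.9 CPM, the narrowest gap between genotypes of the 10 genes. It had 728 UMIs in the deep Ehmt2+/+ replicate 1, and 94, 286 and 253 in the others. Whether a probe also captures a related chemokine was not tested.

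**Figure D1:**
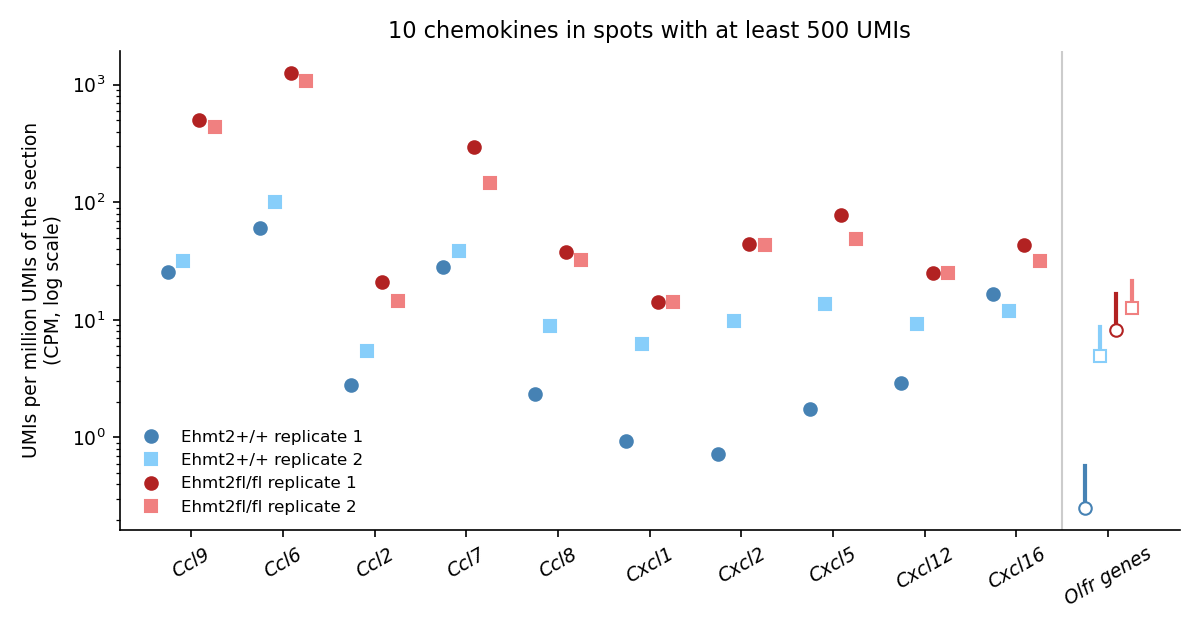
Level of each of the 10 chemokines in each section, as UMIs per 1000000 UMIs (CPM, log scale), with the median (open symbol) and 95th percentile (end of the line) of the Olfr genes of that section at the right. Ccl6, Ccl9 and Ccl7 lie above every Olfr gene in all 4 sections, and the Olfr median itself runs from 0.251 CPM in Ehmt2+/+ replicate 1 to 12.6 CPM in Ehmt2fl/fl replicate 2.

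The first comparison asked which of these chemokines differed between the inflamed glands of the 2 genotypes. In CPM both Ehmt2fl/fl sections lay above both Ehmt2+/+ sections for 10 of 10 chemokines, but so they did for 90.9% of all 20381 genes detected. With spots thinned to 500 UMIs the count was again 10 of 10, beside 89.5% of all genes and 92.3% of the 1107 Olfr genes. On these scales the direction was thus shared with most genes and most Olfr genes. With thinning outside the enzyme list the count was 9 of 10, beside 50.1% of all genes and 53.7% of the Olfr genes. In CPM and in shares of spots thinned to 500 UMIs of all genes, each member had a two-sided exact permutation p over sections of 0.333. That is the smallest that 2 against 2 sections allow. The size of the gap set some members apart from most genes.

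For this gap, the lowest Ehmt2fl/fl CPM was divided by the highest Ehmt2+/+ CPM. The ratio was 13.6 for Ccl9 and 10.7 for Ccl6, against a median of 1.69 over the 20053 genes tested. A ratio at least that of Ccl9 was found in 35 genes (0.175%), of which 20 lie on the Y chromosome, and at least that of Ccl6 in 42 genes (0.209%). It was 4.45 for Cxcl2, 3.80 for Ccl7, 3.67 for Ccl8 and 3.56 for Cxcl5, which 1.09% to 2.10% of genes reached. The ratio of Cxcl12 was 2.67, that of Ccl2 2.64, that of Cxcl1 2.26 and that of Cxcl16 1.92. So 3 of the 10 chemokines had a gap of at least 4-fold, beside 1.43% of all genes, and 9 of at least 2-fold, beside 27.4%. The chemokines were chosen with earlier results of these data known, and the gap ratio after seeing the data. These shares are therefore a description and no test of enrichment. Within slide 1, the Ehmt2fl/fl level of Ccl9 was 19.5-fold and that of Ccl6 21.1-fold the Ehmt2+/+ level, where the median gene was at 9.46-fold. Within slide 2 the values were 13.6-fold and 10.7-fold, where the median gene was at 2.24-fold.

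**Figure D2:**
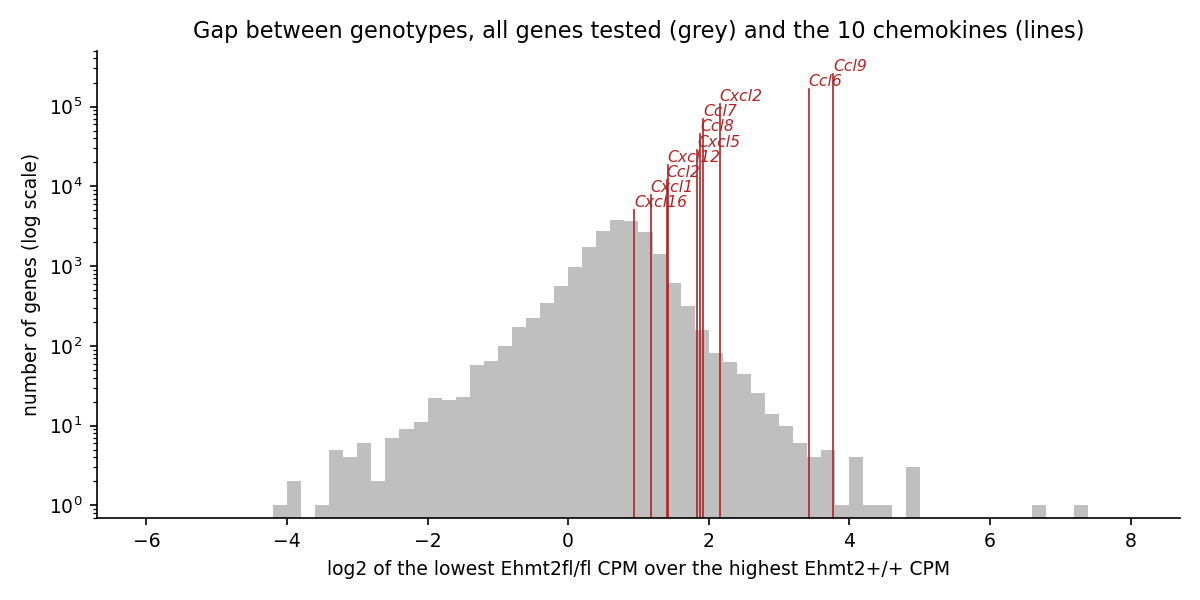
Distribution over the 20053 genes tested (grey, genes with a ratio of 0 or without a UMI in Ehmt2+/+ left out) of the log2 ratio of the lowest Ehmt2fl/fl CPM to the highest Ehmt2+/+ CPM, with both axes logarithmic in effect and each chemokine drawn as a labelled line whose height has no meaning. Cxcl16, Cxcl1, Ccl2 and Cxcl12 lie in the body of the distribution, and Ccl6 and Ccl9 lie in its far right tail.

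Tested on counts summed per section (edgeR quasi-likelihood test with TMM normalization and Benjamini-Hochberg adjustment over 20053 genes), 0 of 10 chemokines passed an adjusted p of 0.05, as 0.11% of all genes did in either direction and 0.0549% as higher. Of the 11 genes called higher, 10 lie on the Y chromosome. The largest log2 fold changes among the chemokines were 2.02 for Ccl9 (SE 1.07, edgeR adjusted p = 0.863), 1.995 for Ccl6 (SE 1.19, adjusted p = 0.863), 1.88 for Cxcl2 (SE 0.69, adjusted p = 0.597) and 1.76 for Cxcl5 (SE 0.77, adjusted p = 0.810). At an unadjusted edgeR p of 0.05, Cxcl2 and Cxcl5 passed, as did 1059 of the 20053 genes. DESeq2 called 0 of the 3 members to which it gave an adjusted p, where it called 6 genes higher and 464 lower. A fold change at least that of Ccl9 was held by 0.284% of genes, and at least that of Cxcl5 by 0.429%. The median of the 10 chemokines was 0.95, against 0.25 for all genes tested and 0.81 for the Olfr genes.

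The other chemokines had smaller log2 fold changes, of 1.10 for Ccl8, 0.80 for Ccl7, 0.61 for Cxcl1, 0.42 for Cxcl12, 0.31 for Ccl2 and −0.81 for Cxcl16. Scaling moved all genes: their median log2 fold change was 0.25 with TMM, 1.69 when scaled to library sizes alone and −0.03 in DESeq2. Taken relative to that median, the change of Ccl9 was 1.78, 2.33 and 1.60 under the 3 scalings, that of Ccl6 1.75, 2.18 and 1.61, and that of Cxcl2 1.63, 1.42 and 1.73. Cxcl16 lay below the median of all genes under each of them, at −1.06, −0.31 and −1.27, while its own sign turned positive with library sizes alone. With library sizes alone Ccl9, Ccl6 and Ccl7 were called (edgeR adjusted p = 0.017, 0.0228 and 0.034). In that fit 388 of the 20053 genes tested were called higher and 12 lower. Without Ehmt2+/+ replicate 1, the log2 fold change was 2.92 for Ccl9, 2.60 for Ccl6 and 1.28 for Cxcl5. Without Ehmt2+/+ replicate 2, the shallower of that pair, it was 1.34 for Ccl9, 1.44 for Ccl6 and 2.36 for Cxcl5. The median of the Olfr genes was 0.08 in the former fit and 2.45 in the latter, above all 3 of these values. That of all genes was 0.04 and 0.50.

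**Figure D3:**
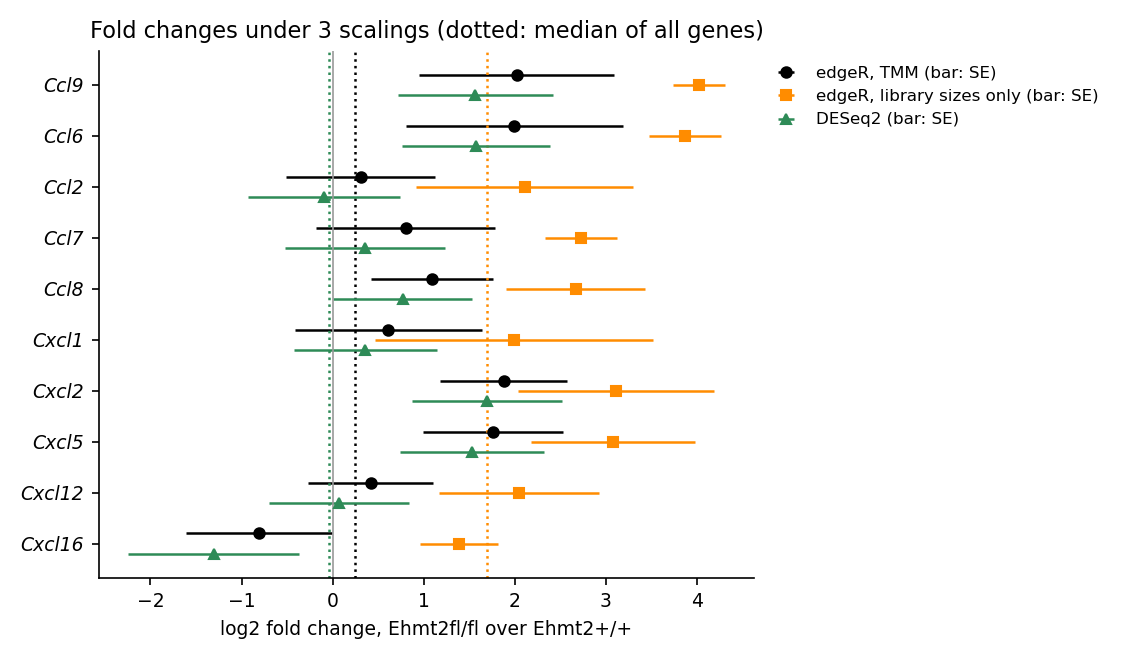
Log2 fold change of each chemokine, Ehmt2fl/fl over Ehmt2+/+, with its standard error as a bar, under edgeR with TMM, edgeR with library sizes alone and DESeq2, with the median of all genes under each as a dotted line. Ccl9, Ccl6, Cxcl2 and Cxcl5 lie to the right of the dotted line under each scaling, and Cxcl16 lies to its left.

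Marker levels of other cell types also differed between the sections. Of 12 macrophage markers, 12 were higher in both Ehmt2fl/fl sections than in both Ehmt2+/+ sections, beside 90.9% of all genes, with a summed level of 105 and 190 CPM against 1158 and 949 CPM. Their most abundant genes were Fcgr1, C1qa and Cd68, while Adgre1 and Lyz2 were matched or exceeded by 29.7% to 57.8% of Olfr genes in the 3 shallower sections. The 9 neutrophil markers summed to 4.07 and 51.0 CPM against 150 and 160 CPM, most of them also within the Olfr range, and the 7 B cell markers to 3.97 and 72.7 CPM against 191 and 274 CPM. In CPM all 6 fibroblast, 6 endothelial, 4 mesothelial and 6 fat cell markers were higher in both Ehmt2fl/fl sections as well. So were 5 of 6 T cell, 5 of 8 duct and 2 of 7 islet markers. The median log2 fold change with TMM was 0.98 for macrophage, −0.13 for fibroblast and 0.17 for endothelial markers, against 0.25 for all genes. It was 0.67 for mesothelial and 0.98 for fat cell markers. The 8 acinar markers summed to 405079 and 336676 CPM in the Ehmt2+/+ sections and to 159027 and 152517 CPM in the Ehmt2fl/fl sections. No marker list had a member called higher, and 1 acinar marker, Rbpjl, was called lower. The part of these cells in the chemokine levels was not tested.

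The levels were also set on other denominators. Per 1000000 UMIs outside the digestive enzyme list, Ccl9 stood at 70.2 and 67.6 against 641 and 553, and Ccl6 at 165 and 213 against 1631 and 1373. These were mean ratios of 8.66 and 7.94, against 16.3 and 14.6 in CPM. On that scale 9 of 10 chemokines did not overlap between genotypes, beside 49.1% of all genes. Cxcl16 did, with 45.7 and 25.4 against 55.3 and 40.6.

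Set against macrophage marker UMIs, Ccl9 and Ccl6 stood apart from the other 8 chemokines. Per 1000 UMIs of the 12 macrophage markers there were 571 and 530 UMIs of Ccl6 in the Ehmt2+/+ sections and 1097 and 1137 in the Ehmt2fl/fl sections. For Ccl9 there were 243 and 168 UMIs, and 431 and 458 UMIs. The mean ratio between genotypes was 2.03 for Ccl6 and 2.16 for Ccl9, in the same direction on both slides. Only 0.540% of all 20381 genes, 110 in number, were higher in both Ehmt2fl/fl sections on this scale. Ccl2, Ccl7, Cxcl12 and Cxcl16 had fewer UMIs per macrophage UMI in the Ehmt2fl/fl section of each slide, for example 26.5 and 28.9 against 18.2 and 15.3 for Ccl2. The share of all genes lower in this way was not counted, so that order is not read as particular to these chemokines. Cxcl2 did not separate the genotypes, with 6.95 and 51.7 against 38.2 and 46.1.

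**Figure D4:**
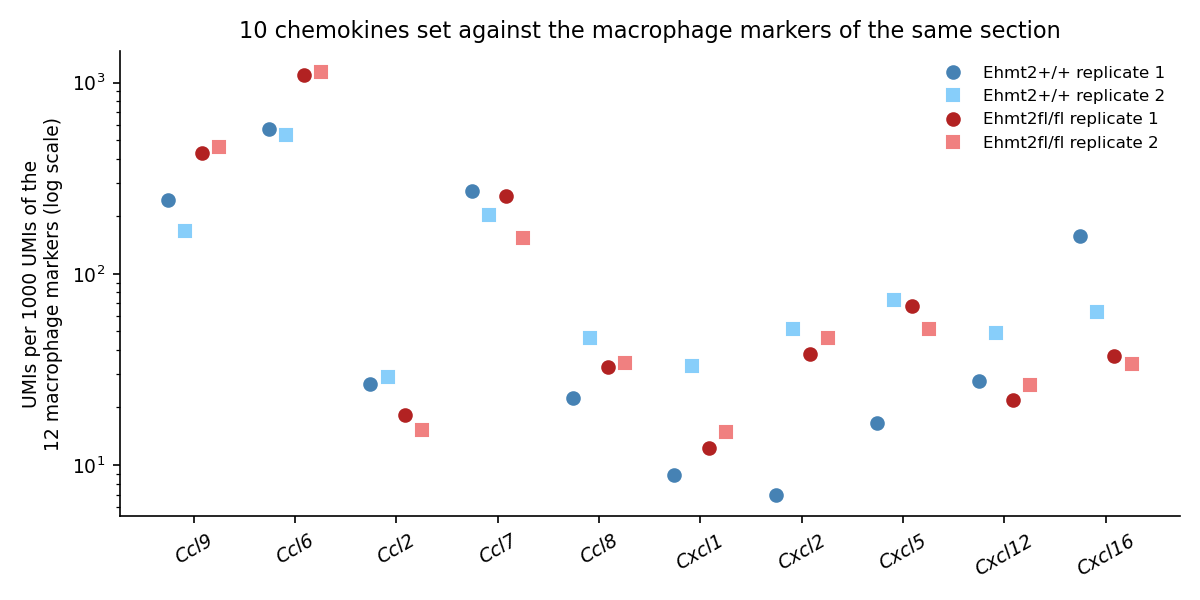
UMIs of each chemokine per 1000 UMIs of the 12 macrophage markers of the same section (log scale). The Ehmt2fl/fl sections lie above both Ehmt2+/+ sections for Ccl9 and Ccl6 alone among the 10 chemokines.

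The second comparison asked where in the tissue the chemokines were found. In each section spots thinned to 500 UMIs were ranked by their macrophage marker UMIs, and those at or above the 90th percentile and with at least 1 such UMI, ties included, were set against the rest (428, 766, 908 and 675 spots). Ccl9, Ccl6, Ccl2, Ccl7, Ccl8 and Cxcl12 had a higher share in macrophage-rich spots in all 4 sections. How many of all genes did so was not counted. Ccl6 was in 8.18% of macrophage-rich spots and 3.78% of the others in Ehmt2+/+ replicate 1, and in 8.22% and 5.05% in Ehmt2+/+ replicate 2. In the Ehmt2fl/fl sections the shares were 58.8% against 39.2%, and 55.4% against 36.9%. Ccl9 had 4.21% against 1.63% and 3.92% against 1.65% in the Ehmt2+/+ sections, and 33.5% against 19.0% and 31.7% against 18.1% in the Ehmt2fl/fl sections. Macrophage-rich spots thus held more of both in each section. The class began at 1 macrophage UMI in the Ehmt2+/+ sections and at 2 in the Ehmt2fl/fl sections, so it is compared within a section only.

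Ccl7, Ccl2 and Ccl8 showed smaller or sparser contrasts. Ccl7 had 3.04% against 1.77% and 3.0% against 2.06%, then 16.4% against 12.8% and 7.41% against 6.46%. Ccl2 was seen in only 1 and 3 macrophage-rich spots of the Ehmt2+/+ sections, and in 18 and 11 of the Ehmt2fl/fl sections. Macrophage-rich spots held 1.13 to 1.42 times the Olfr UMIs of other spots. The same ratio of UMIs was above that of the Olfr genes in each section for Ccl9, Ccl6, Ccl2, Ccl7 and Ccl8, but not for Cxcl12. Macrophage-rich spots were not alone in this. A higher share in all 4 sections was also held by Ccl2 and Ccl7 in endothelial-rich and Ccl9 and Ccl7 in T cell-rich spots. So it was by Ccl6 and Ccl8 in fat-rich, Ccl2 in islet-rich and Ccl6 in blood-rich spots. Of these, Ccl2 in endothelial-rich and Ccl6 in fat-rich spots exceeded the Olfr genes in each section. With spots thinned to 500 UMIs of genes outside the enzyme list, the genes with a higher share in macrophage-rich spots in all 4 sections were Ccl9, Ccl6, Ccl2, Ccl7 and Cxcl2. Of these, Ccl7 did not exceed the Olfr genes in each section. No chemokine then had a higher share in all 4 sections in endothelial-rich, T cell-rich, fat-rich, islet-rich or blood-rich spots. On that scale Ccl9 had a higher share in all 4 sections in neutrophil-rich spots, and Ccl9 and Ccl6 did in mesothelial-rich spots. Neither gene exceeded the Olfr genes in each section there. With spots thinned to 500 UMIs of all genes, no chemokine had a higher share in all 4 sections in these classes.

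Spots rich in acinar transcripts held less Ccl6. Its share was 2.0% against 4.33% of other spots and 2.14% against 5.75% in the Ehmt2+/+ sections, and 23.8% against 44.0% and 20.5% against 41.0% in the Ehmt2fl/fl sections. Ccl9 had 1.69% against 1.82% and 0.949% against 1.98%, then 6.49% against 22.7% and 8.63% against 20.8%. With spots thinned to 500 UMIs of all genes, no chemokine was more frequent in acinar-rich spots in all 4 sections. A spot filled by enzyme transcripts has fewer UMIs left for other genes, and thinned to 500 UMIs outside the enzyme list the ratio of the shares of Ccl6 was 0.84, 0.98, 1.02 and 0.97. On that scale the share of Ccl6 was lower in acinar-rich spots in 3 of 4 sections, by less. Cxcl16 alone of the chemokines was then more frequent in acinar-rich spots in all 4 sections. Its ratio of UMIs was above that of the Olfr genes in each. In duct-rich spots Cxcl5 alone was more frequent in all 4 sections, by ratios of 1.01 to 1.85, but with thinning outside the enzyme list it was more frequent there in 1 section only, and Ccl2 was in all 4. In fibroblast-rich spots Ccl9, Ccl6, Ccl8 and Cxcl5 had a higher share in all 4 sections. These spots also held 1.06 to 1.36 times the Olfr UMIs of other spots, a ratio that Ccl6 and Ccl8 alone of the 4 genes exceeded in each section. With thinning outside the enzyme list the genes more frequent in fibroblast-rich spots were Ccl6, Ccl8 and Cxcl2.

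**Figure D5:**
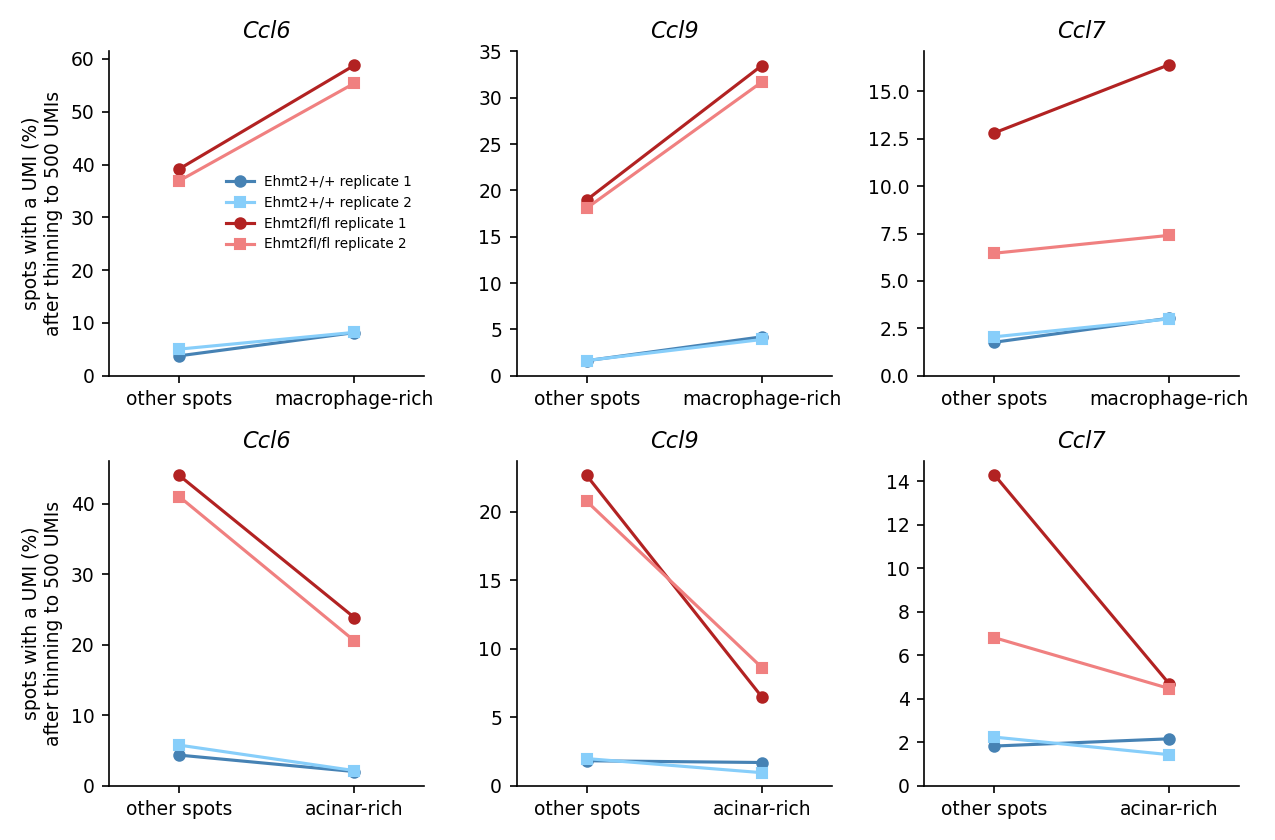
Share of spots (%) with a UMI of Ccl6, Ccl9 and Ccl7 after thinning to 500 UMIs, in spots rich in macrophage markers (top) or acinar markers (bottom) and in the other spots, with 1 line per section and separate vertical scales. All 3 genes have a higher share in macrophage-rich spots in the 4 sections, and Ccl6 has a lower share in acinar-rich spots in the 4 sections.

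Ccl9 and Ccl6, neighbours on chromosome 11, were also found in the same spots. After thinning, 1505 spots held both, where the product of their shares gave 1073, and the ratio was above 1 in all 4 sections (1.37 to 2.54). Ccl6 and Ccl7 shared 642 spots against 540, with ratios of 1.13 to 2.21. These were the 2 pairs of the 45 whose spots exceeded the product in all 4 sections. That count favours abundant genes: in Ehmt2+/+ replicate 1 the product gave only 0.0013 spots for Cxcl1 and Cxcl2. It therefore cannot set these pairs apart from pairs of sparse genes. Pairs of Olfr genes, and spots thinned outside the enzyme list, were not compared. Across spots of a section, which share a library, the gene most like Ccl6 was Ccl9, with a mean Pearson correlation of 0.13 over the 4 sections (0.03 and 0.05 in Ehmt2+/+, 0.25 and 0.20 in Ehmt2fl/fl). The next were Actb and Tmsb4x, of the actin cytoskeleton, Cfp, which encodes properdin, and Maf, a macrophage transcription factor, at 0.11 to 0.09. For Ccl9 they were Ccl6, Actb, Tmsb4x, Maf and Ctss, a lysosomal protease of myeloid cells. For Ccl7 the highest mean correlation of a gene that was positive in all 4 sections rounded to 0.04, as did that of the highest Olfr gene.

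The receptors were low and none was called. Of 12 receptor genes, 12 were higher in CPM in both Ehmt2fl/fl sections, near the 90.9% of all genes, with a median log2 fold change of 0.84. Ccr2, the receptor of Ccl2 and Ccl7, was the most abundant, at 21.7 and 17.7 CPM in the Ehmt2+/+ sections and 196 and 178 CPM in the Ehmt2fl/fl sections. Ackr2 and Ackr3, scavenging receptors, had 18.7 to 25.7 CPM in the Ehmt2fl/fl sections, levels that 1.1% to 2.6% of Olfr genes reached. No Olfr gene reached Ccr2 in any section.

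Of 27 other chemokine genes, 23 were tested and none was called, with a median log2 fold change of 0.75. The most abundant were Cxcl14 and Pf4. Cxcl14, an epithelial chemokine, stood at 12.6 and 34.4 CPM in the Ehmt2+/+ sections and at 423 and 388 CPM in the Ehmt2fl/fl sections. Pf4, a platelet and macrophage chemokine, stood at 12.2 and 20.3 CPM, and at 264 and 289 CPM. Both were, like Ccl9 and Ccl6, among the genes higher in both Ehmt2fl/fl sections per macrophage UMI. Ccl27a stood at 3.33 and 34.7 CPM, and at 54.8 and 103 CPM, and Cx3cl1 at 4.29 and 23.8 CPM, and at 46.4 and 50.0 CPM.

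Among 17 inducers of chemokine genes, 16 were tested and none was called, with a median log2 fold change of 0.58. Subunits and the inhibitor of NF-κB led the list. Rela stood at 220 and 257 CPM in the Ehmt2+/+ sections and at 289 and 259 CPM in the Ehmt2fl/fl sections, with a log2 fold change of −1.82 (SE 1.16) on the TMM scale. Nfkb1 stood at 44.0 and 67.6 CPM against 230 and 189 CPM, Nfkbia at 40.8 and 64.0 CPM against 139 and 146 CPM, and Nfkb2 at 50.0 and 54.8 CPM against 138 and 121 CPM. Of 6 proteases that cut chemokines, none was called. Adam10, which sheds Cxcl16, was at 52.3 and 33.4 CPM against 48.0 and 43.2 CPM, with no separation of the genotypes. Mmp9, a gelatinase of neutrophils and macrophages, was at 1.53 and 13.5 CPM against 65.9 and 84.7 CPM, with a log2 fold change of 2.02 (SE 0.80, edgeR adjusted p = 0.691). Adam17 was at 12.2 and 14.9 CPM against 36.0 and 43.1 CPM, and Mmp8 at levels that 11.5% to 25.7% of Olfr genes reached in each section.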

How the data were processed

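Formalin-fixed sections of pancreas went through probe-based Visium on a CytAssist instrument. The deposited values are raw UMI counts per feature and spot, which the authors made with Space Ranger 2.0.1 (per the file headers) on mm10, without normalization. Of 32589 features, 304 carrying the mark of a deprecated probe were left out. Counts of spots with at least 500 UMIs were summed per section (sections being the replicates) and compared by the quasi-likelihood test of edgeR 4.0.16 under R 4.3.3 (TMM; genes kept by filterByExpr at 10 counts; adjusted p threshold of 0.05). The pipeline was tested on simulated data. Shares of spots were computed at 500 UMIs as means under random thinning, or with seeded draws for spot classes, pairs and correlations. Spot classes took the spots at or above the 90th percentile of a marker list and with at least 1 of its UMIs, ties included, so that class sizes varied. No doublet caller was run, since spots hold several cells. Barcodes name positions of the array, and 13898 were listed in all 4 sections. Promoter sequences came from RefSeq and coordinates from GENCODE M21, on the build of the files.

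The 10 chemokines and all gene lists were chosen with earlier results of these data known. The text names the 10 chemokines, of each other list the called genes and the 4 with the highest mean CPM, the 5 genes most like Ccl6, Ccl9 and Ccl7, Ehmt2 and 5 sex-linked genes. Some results under this rule are left out here. Marker genes were named after their values were seen, and the ratio to macrophage UMIs, the gap ratio and the slide block were chosen after seeing the data. Alternatives were DESeq2 1.42.0, library sizes without TMM, upper-quartile normalization, enzyme genes or lymphoid spots left out, no filter, other spot limits and each section left out. The rest used Python 3.11.15 (scipy 1.17.1, pandas 2.3.3, numpy 2.4.6, matplotlib 3.10.9).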

Additional observations from a re-analysis of the deposited data

Results flagged for a closer look

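Spots below the lowest point of each section's histogram of UMIs, left out of the main comparisons, also carried these transcripts. They were defined by UMIs alone and not by where tissue was marked, so some may lie over tissue. Ccl6 was present in 0.754% and 1.19% of such spots in the Ehmt2+/+ sections and in 3.20% and 3.60% in the Ehmt2fl/fl sections. Ccl9 was present in 0.442% and 0.371%, and in 1.22% and 1.30%. These spots held medians of 39, 31, 12 and 11 UMIs. Per 1000000 UMIs Ccl6 stood there at 114, 276, 1604 and 1830, above its level in the spots with at least 500 UMIs of each section. Cxcl2 was present in 0.0260% and 0.0247%, and in 0.0326% and 0.102%, on 1 to 6 UMIs a section. All 3 were picked out because both Ehmt2fl/fl sections lay above both Ehmt2+/+ sections, and the source of this RNA was not tested. How many of all genes had that order in these spots was not counted, so it is not read as particular to these chemokines. Counted without thinning in spots with at least 500 UMIs, 51.4% of all genes had it.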

How the results depend on the processing

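Few sections and 1 deep library, Ehmt2+/+ replicate 1, limit these results. The TMM factors, which scale each section beyond its depth, were 0.288 and 0.957 in the Ehmt2+/+ sections and 1.71 and 2.13 in the Ehmt2fl/fl sections. The labels carry no replicate numbers, so the numbers only name sections. The slide, found in the alignment files, pairs 1 section of each genotype, and a fit with it as a block gave 11 genes called higher, 2 lower and 0 chemokines. Of all genes, 11 were called higher and 11 lower. The counts were 6 and 464 with DESeq2, 388 higher with library sizes alone, and 3 and 0 with upper-quartile normalization. With each section left out they ran from 0 to 9348 higher and from 0 to 7305 lower, the highest without Ehmt2+/+ replicate 2. In these fits the lone section of a genotype is assumed to vary like the other pair. The chemokines called were 0, but 3 with library sizes alone, where 388 of 20053 genes were called higher and 12 lower. Calls of chemokines with a section left out are not counted here, since a lone section gives no spread of its own. With each section left out, the log2 fold change ran from 1.34 to 2.92 for Ccl9 and from 1.44 to 2.60 for Ccl6. The median of the Olfr genes ran from 0.08 (without Ehmt2+/+ replicate 1) to 2.45 (without Ehmt2+/+ replicate 2).

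The 10 chemokines without overlap became 1 (Cxcl2) when shares were divided by the Olfr median, beside 4.51% of all genes. That divisor was 0.0167% in Ehmt2+/+ replicate 1 and 0.274% to 0.671% elsewhere, and Cxcl2 had 32 UMIs in Ehmt2+/+ replicate 1. They became 9 in CPM less the Olfr median (57.8% of all genes) and 9 with thinning outside the enzyme list (50.1%). They became 3 when a 4-fold gap was asked for (1.43%), 2 per 1000 macrophage UMIs (0.540%) and 7 without thinning (51.4%). The count of 6 in macrophage-rich spots was 5 with thinning outside the enzyme list and 6 without lymphoid spots. The top 5% took the same spots there and so changed nothing. Of the log2 fold changes, that of Ccl2 turned to −0.095 with DESeq2 and −0.51 less the Olfr median, and ran from −0.19 to 0.74 with each section left out (below 0 without Ehmt2+/+ replicate 2 or Ehmt2fl/fl replicate 1). That of Ccl7 turned to −0.0122 less the Olfr median and ran from −0.0123 (without Ehmt2fl/fl replicate 1) to 1.60 with each section left out. Less the Olfr median, Cxcl1 stood at −0.20 and Cxcl12 at −0.40. That of Cxcl16 turned to 1.38 with library sizes alone, ran from −1.68 to 0.70 (without Ehmt2+/+ replicate 1) with each section left out, and was 1.37 and 1.41 within slides 1 and 2. Those of Ccl9, Ccl6, Ccl8, Cxcl2 and Cxcl5 kept their sign under each alternative. The cause of these shifts was not tested.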
